A study of Bactrocera dorsalis with 16 samples.

Results

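RNA sequencing was used to compare older with younger ovaries in adult Bactrocera dorsalis, the oriental fruit fly. The older side held 4 libraries, 2 from ovaries 9 days after eclosion and 2 from day 13, and the younger side held 4, 2 from day 1 and 2 from day 5. These 8 were chosen by the tissue and age in the labels out of 16 libraries, the other 8 being fat body of the same ages, which served as a second tissue. All flies were females of a laboratory colony fed yeast extract and sugar, and the labels name no genotype, treatment or mating status in any group. The design text calls the 2 libraries of a group biological replicates, without saying how many animals each pooled, so p-values measure the spread between these libraries. Levels are FPKM, fragment counts divided by gene length and by sequencing depth. Changes are differences of mean log2(FPKM + 1), days 9 and 13 minus days 1 and 5, with n = 4 libraries a side. They are given ± standard error (SE) from a fit of all 16 libraries in 8 groups of 2 by tissue and age. This SE measures the spread between libraries of the same tissue and age, and leaves out differences between the 2 ages of a side. The question put to the data was which genes sit at a new level at both late ages.

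In a fly ovary, each egg chamber grows from germline stem cells and their somatic neighbours. A layer of somatic follicle cells surrounds the germ cells, and late in the growth of the oocyte it secretes first the vitelline membrane and then the chorion of the eggshell. Nurse cells of the germline make RNAs and proteins that are dumped into the oocyte and later pattern the embryo. Yolk precursor proteins come from the fat body and, in flies such as Drosophila, also from the follicle cells themselves. An ovary of a newly eclosed female holds young egg chambers inside sheaths of muscle, with trachea, nerve endings and blood cells attached, and a mature ovary is filled by late egg chambers.

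The late libraries summed to between 290383 and 321833 FPKM and the early ones to between 301577 and 324109 FPKM. Between 7425 and 7807 genes reached 1 FPKM in a late library, against between 8602 and 9054 in an early one. Read totals are not known from the files, and levels therefore carry no counting interval, and a level of 0 no limit. From the steps between low values, the relative depth was 1.06 to 1.11 in late libraries and 0.925 to 1.02 in early ones. Vasa (MSTRG.707), the RNA helicase that marks germ cells, was present at every age of the ovary: it stood at 503 and 520.5 FPKM at day 9 and 513 and 481 FPKM at day 13, against 445 and 337 FPKM at day 1 and 553 and 571 FPKM at day 5. In fat body vasa ranged from 9.03 to 23.1 FPKM. The ovary change did not pass the test (0.11 ± 0.16, adjusted p = 0.566).

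Of 10213 genes tested, 6163 (60.3%) differed between the late and the early side at an adjusted p under 0.05 in limma. As deposited, 2314 (22.7%) were higher late and 3849 (37.7%) were lower. This split depended on scaling: after median-of-ratios scaling 3127 were higher and 3033 lower, and after quantile normalization 2782 were higher and 2723 lower. The median change of all genes was -0.21 as deposited, -0.01 after median-of-ratios scaling and 0.00 after quantile normalization. Changes below are to be read against that -0.21. Without day 1, 2012 genes were higher and 2980 lower, and without day 5, 2113 and 3818. Without day 9 the counts were 2318 and 3563, and without day 13, 1689 and 3391. Calls over all genes also fell with any single ovary library left out. List counts under such a setting are to be read against all genes in that setting. A gene was counted as held at a new level when it passed the test, changed at least 2-fold on the log2(FPKM + 1) scale, had all 4 late libraries on one side of all 4 early ones, and differed by less than 1 on that scale between days 13 and 9. By this rule 805 genes (7.88% of those tested) were held higher and 1909 (18.7%) were held lower. This split depended on scaling too: 1140 were held higher and 1457 lower after median-of-ratios scaling. After quantile normalization 1115 were held higher and 1098 lower. With a limit of 0.5 between days 13 and 9, 550 were held higher and 1448 lower.

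Most of the large changes were of the held kind. Of 976 genes (9.56%) that were called and at least 2-fold higher late, 99 had overlapping sides, 72 changed again by at least 2-fold between days 9 and 13, and 805 were held. Of 2244 (22%) that were at least 2-fold lower, 196 overlapped, 139 changed again and 1909 were held. Among the 72 genes on the higher side that changed again, 40 moved further up by day 13 and 32 moved back, whereas of the 139 on the lower side 138 moved further down and 1 moved back. For 715 held higher genes (88.8%) and 1529 held lower genes (80.1%), less of the change had been covered by day 5 than was still to come. The rule for held genes counts day 5 as early and keeps its libraries apart from all late ones. It thus leaves out many genes that changed by day 5, so these shares describe the held genes and do not test when ovary genes change. Between days 13 and 9, 4.22% of all genes differed (1.63% up and 2.59% down). Of the held higher genes 33 (4.1%) were called up and 2 (0.248%) down. Of the held lower genes 0 were called up and 77 (4.03%) down. The rule had already kept this difference under 1, so these counts cover only a limited range of it and test nothing. Called in all 4 pairings of a late with an early age were 662 held higher genes (82.2%) and 1515 held lower genes (79.4%). The rule had already used the same libraries and the same fit. These 2 shares therefore describe the held genes and test nothing about them. A product was named for 509 of the held higher genes and for 995 of the held lower ones, so that 914 held lower genes (47.9%) can be listed only by identifier.

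**Figure D1:**
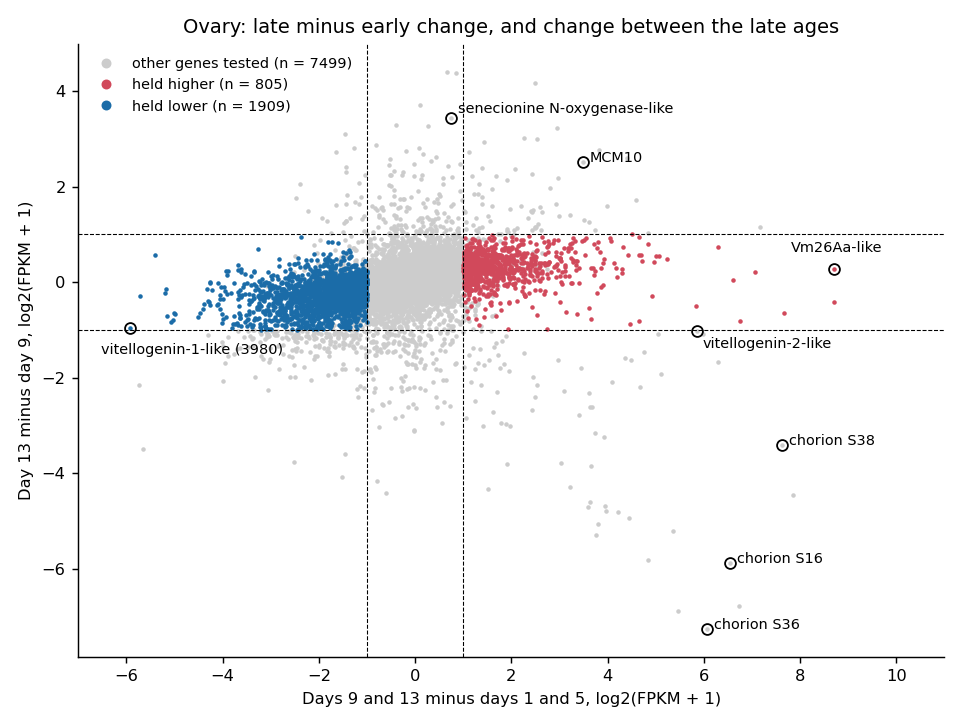
Each point is 1 of the 10213 tested genes, with the late minus early change in the ovary on the x axis and the day 13 minus day 9 change on the y axis, both on the log2(FPKM + 1) scale. Red points are the 805 genes held higher, blue points the 1909 held lower, dashed lines mark a 2-fold difference, and the circled chorion genes S36, S16 and S38 lie far below the band of held genes.

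Among the 34 gene lists examined, eggshell structural genes had the highest median change. Vitelline membrane protein Vm26Aa-like (MSTRG.2241), a structural protein of the inner eggshell layer, had 2180.4 and 1638 FPKM at day 9 and 2263 and 2321 FPKM at day 13, against 4.06 and 3.34 FPKM at day 1 and 4.99 and 3.69 FPKM at day 5. The late libraries were close to one another and far above every early one, a change of 8.71 ± 0.27 (adjusted p = 4.81e-09). A gene annotated as skin secretory protein xP2-like (MSTRG.2533) followed the same course, with 3113 and 2032 FPKM at day 9 and 2069.7 and 1705 FPKM at day 13, against 3.53 to 5.52 FPKM in the early libraries (8.71 ± 0.29, adjusted p = 7.11e-09). Both genes of the defective chorion-1 protein, an eggshell matrix protein in Drosophila, were held: MSTRG.6291 ranged from 301 to 459 FPKM late and from 0.807 to 3.6 FPKM early, and MSTRG.6296 from 191 to 259 FPKM late and from 0.386 to 3.99 FPKM early. Of the 8 tested genes of the chorion and vitelline membrane list, 6 were called higher and 0 lower, with a median change of 6.57, where 22.7% of all genes were higher.

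The 3 major chorion proteins in that list were not held, because they were high at day 9 and much lower at day 13. Chorion protein S36 (MSTRG.3241) had 1434 and 3193 FPKM at day 9 and 3.14 and 46.3 FPKM at day 13, against 0.162 to 3.12 FPKM early. One day 13 library thus sat at the top of the early range while the other was above it. Chorion protein S38 (MSTRG.3240) had 1273 and 2761 FPKM at day 9 and 75.6 and 413 FPKM at day 13, against 1.55 to 2.48 FPKM early. Chorion protein S16 (MSTRG.3904) had 827 and 3062 FPKM at day 9 and 3.5 and 158 FPKM at day 13, against 0.846 to 2.02 FPKM early. The drop between days 9 and 13 was -7.26 for S36, -3.40 for S38 and -5.89 for S16, and without day 9 the late minus early change was 2.45 for S36 (9.70 without day 13) and 3.59 (adjusted p = 0.0693) for S16, which then no longer passed. In all 3 genes day 9 replicate 2 was above replicate 1, and day 13 replicate 2 above replicate 1. A gene annotated as an ice-structuring glycoprotein (MSTRG.3912) had the same shape, at 334 and 894 FPKM at day 9 and 1.98 and 72.5 FPKM at day 13, against 0.98 to 1.45 FPKM early, and its change of 5.36 became 2.76 without day 9.

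Enzymes that cross-link eggshell or cuticle went mostly the other way. Of 21 tested peroxidases, laccases and yellow proteins, 2 were called higher and 15 lower (22.7% of all genes were higher and 37.7% lower), and the median change was -0.90. After quantile normalization 4 were higher and 10 lower. Chorion peroxidase (MSTRG.6306), which hardens the chorion in Drosophila, was held higher with 257 to 320.3 FPKM late against 11.8 to 32.1 FPKM early (3.73 ± 0.18, adjusted p = 6.12e-08). The other higher one, a peroxidase (MSTRG.423), had 28.8 and 102 FPKM at day 9 and 1.85 and 11 FPKM at day 13, against 0.134 to 0.209 FPKM early, and so fell back like the major chorion genes. Its change of 3.93 was 2.30 without day 9. A second peroxidase (MSTRG.896) was held lower, with 5.13 to 10.2 FPKM late against 154 to 445 FPKM early (-5.02 ± 0.22, adjusted p = 3.03e-08). Protein yellow-like (MSTRG.8906), of a family tied to melanin and to eggshell in flies, had 5.7 and 9.14 FPKM at day 9 and 3.97 and 4.15 FPKM at day 13, against 143 and 117 FPKM at day 1 and 405 and 408 FPKM at day 5. It was thus highest at day 5 and lost by day 9.

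**Figure D2:**
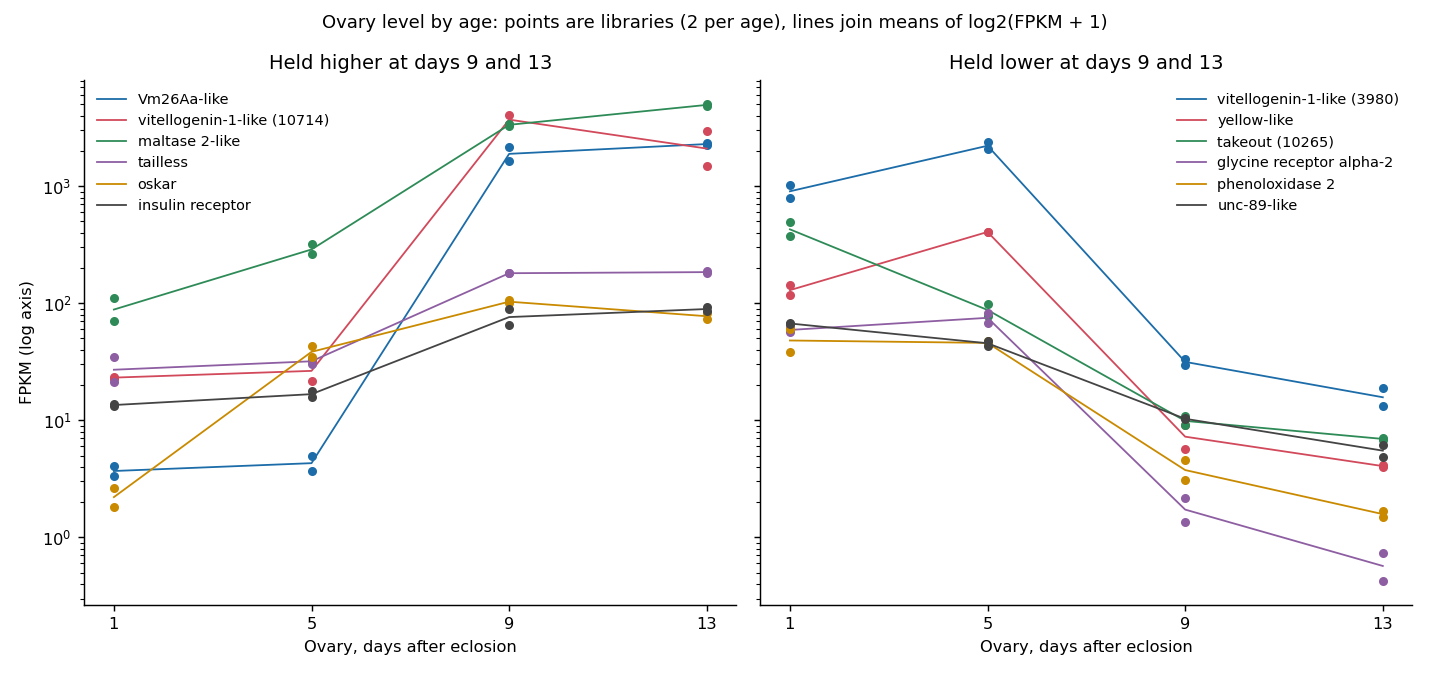
Ovary FPKM (log axis) is plotted against age for 6 genes held higher (left) and 6 held lower (right). Points are the 2 libraries of each age and lines join the means, and each gene has both late ages on one side of both early ages, for example 1638 to 2321 FPKM against 3.34 to 4.99 FPKM for Vm26Aa-like.

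Yolk precursor genes split into a group that rose and a group that fell. Of the 9 annotated vitellogenins, 3 were called higher, 3 lower and 3 neither, where 22.7% of all genes were higher and 37.7% lower. Vitellogenin-1-like (MSTRG.10714) was held higher, with 4077 and 3368 FPKM at day 9 and 2939 and 1496 FPKM at day 13, against 23.6 and 22.7 FPKM at day 1 and 32 and 21.8 FPKM at day 5 (6.76 ± 0.24, adjusted p = 9.95e-09). Vitellogenin-2-like (MSTRG.3414) had 7484 and 6253 FPKM at day 9 and 3653 and 3090.0 FPKM at day 13, against 38.7 to 174 FPKM early, and the vitellogenin-1-like precursor (MSTRG.3415) had 7824 and 6939.9 FPKM at day 9 and 3692 and 3241 FPKM at day 13, against 54.6 to 489.7 FPKM early. Both rose, by 5.86 ± 0.11 and 5.05 ± 0.16, and stood just outside the limit for held genes, since day 13 was below day 9 by -1.03 and -1.09. Vitellogenin-1-like (MSTRG.3980) ran opposite, with 29.6 and 33.6 FPKM at day 9 and 13.2 and 18.7 FPKM at day 13, against 1031 and 794 FPKM at day 1 and 2373 and 2070.1 FPKM at day 5 (-5.92 ± 0.25, adjusted p = 2.6e-08). It was the most abundant of the 9 in each early library and lay far below the 3 rising ones in each late library.

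The other 2 vitellogenins that fell were also held. Vitellogenin-1-like (MSTRG.3979) had 0.155 to 0.577 FPKM late against 9.78 to 108 FPKM early (-5.19 ± 0.81, adjusted p = 0.000266). Vitellogenin-3-like (MSTRG.3977) had 1.38 to 2.81 FPKM late, against 52.7 and 48.7 FPKM at day 1 and 11.3 and 7.83 FPKM at day 5, so that its change of -2.96 was -1.80 without day 1. The 3 vitellogenins that were not called were MSTRG.10715, MSTRG.3974 and MSTRG.3978. MSTRG.10715 was listed at 0 in every early library and at day 13, with 17.7 and 9.54 FPKM at day 9, and passed without day 13 (3.81, adjusted p = 0.00998), in a fit of the 8 ovary libraries alone (adjusted p = 0.000339) and with a pseudocount of 0.1 (adjusted p = 0.0446). MSTRG.3974 had 0.151 to 9.62 FPKM late, against 636 and 8.29 FPKM at day 1 and 16.7 and 621 FPKM at day 5, and so differed more between replicates than between ages. It passed the test without day 1 replicate 2 (-5.48), day 5 replicate 1 (-5.24) or day 13 replicate 1 (-4.69), and with a pseudocount of 0.1 (-4.55, adjusted p = 0.0448). MSTRG.3978 had 0.855 to 4.56 FPKM late, against 0.228 and 0.686 FPKM at day 1 and 31.5 and 10.8 FPKM at day 5, and passed only without day 1 (-2.55, adjusted p = 0.00646). Vitellogenins of one product name may share sequence, and how reads were divided among such copies is not stated.

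The rising vitellogenin MSTRG.10714 changed by 6.71 ± 0.24 in fat body, close to its 6.76 ± 0.24 in ovary. The difference between the tissues was 0.05 ± 0.34 and did not pass the test (adjusted p = 0.919). For MSTRG.3980 the fat body change was -1.06 ± 0.25, and the ovary change was lower by -4.86 ± 0.36 (adjusted p = 2.74e-06). The 10 fat body marker genes summed to 12.5 to 41.6 FPKM in late ovaries, against 170.1 to 223 FPKM in early ovaries. In fat body these markers summed to 334 to 2449 FPKM. Of the 9 that were tested, 0 were higher and 7 were lower late in the ovary, where 22.7% and 37.7% of all genes were. After quantile normalization 4 were lower, and without day 1, 2 were. The part of fat body cells in the vitellogenin levels of the ovary was not tested.

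Among genes of yolk uptake, the receptor had the largest change. The putative vitellogenin receptor (MSTRG.8753), the oocyte's surface protein for taking in yolk, was held higher with 434 and 384 FPKM at day 9 and 312 and 386 FPKM at day 13, against 18.7 and 9.62 FPKM at day 1 and 159 and 196 FPKM at day 5 (2.90 ± 0.32, adjusted p = 1.85e-05). Much of its rise was made by day 5: without day 1 the change was 1.09 (adjusted p = 0.0389), and without day 5 it was 4.71. Of the 9 tested genes of uptake and endocytosis, 2 were higher and 2 lower, where 22.7% and 37.7% of all genes were. The balance depended on the scaling, with 5 higher and 1 lower after median-of-ratios scaling, and 4 were higher without day 1 replicate 2. The second higher one was epsin-1 (MSTRG.11089, 0.75 ± 0.18), and the lower ones were clathrin heavy chain (MSTRG.10636, -0.65 ± 0.19) and a RAB5B GTPase (MSTRG.9968, -0.67 ± 0.08). Clathrin heavy chain no longer passed without day 5 (-0.24, adjusted p = 0.392) or day 13 (-0.47, adjusted p = 0.113) or after median-of-ratios scaling (-0.37, adjusted p = 0.0746), and its change was -1.06 without day 1. The RAB5B change was -0.39 under that scaling.

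Germline and maternal RNAs rose in part. Oskar (MSTRG.1212), the founder of posterior germ plasm in the Drosophila oocyte, had 106 and 100.3 FPKM at day 9 and 72.9 and 82.3 FPKM at day 13, against 2.63 and 1.83 FPKM at day 1 and 34.5 and 42.8 FPKM at day 5 (3.01 ± 0.13, adjusted p = 3.19e-08). As with the receptor, day 5 was already well above day 1, and the change was 1.20 without day 1 and 4.82 without day 5. Nanos (MSTRG.1614), a translational repressor of the posterior, had 102 and 85.2 FPKM at day 9 and 179.9 and 189 FPKM at day 13, against 38.1 to 45.8 FPKM early (1.60 ± 0.19, adjusted p = 3.93e-05). It lay just inside the limit for held genes, with day 13 above day 9 by 0.98. Bicaudal C (MSTRG.10767), an RNA-binding protein of the oocyte, had 258 to 308 FPKM late, against 11.8 and 6.11 FPKM at day 1 and 44.3 and 51.8 FPKM at day 5 (3.72 ± 0.26, adjusted p = 7.34e-07).

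Of 20 tested germline and oogenesis genes, 8 were called higher and 3 lower (22.7% and 37.7% of all genes), with a median change of 0.05. The remaining higher ones were cup (MSTRG.2454, 1.55), staufen (MSTRG.6022, 1.29), maelstrom 1 (MSTRG.10662, 1.29), a pumilio-like gene (MSTRG.10261, 0.81) and ovo (MSTRG.1919, 0.73). Of these, staufen changed by 0.66 without day 1 and ovo by 0.44 (adjusted p = 0.0612) without day 13. The pumilio-like call was the least stable: it was 0.02 (adjusted p = 0.982) without day 1, 0.30 (adjusted p = 0.558) without day 13, 1.60 without day 5 and 1.32 without day 9, and it ended (0.45 to 0.92) without either day 1 library, either day 13 library, day 5 replicate 2 or day 9 replicate 1, and in a fit of the 8 ovary libraries alone (adjusted p = 0.136). The 3 lower genes were benign gonial cell neoplasm protein (MSTRG.6504), a differentiation factor of stem cell daughters in the Drosophila germline, and 2 further ovo genes (61614 and MSTRG.775). Benign gonial cell neoplasm protein had 0.214 to 0.664 FPKM late against 3.38 to 9.58 FPKM early (-2.28 ± 0.10, adjusted p = 3.37e-08). After quantile normalization its change was -1.44, and those of 61614 and MSTRG.775 were -0.96 and -0.69. Without day 1, 6 genes of the list were lower in place of 3, and without day 9, 5. The summed level of the 21 listed genes was 1806 to 2050.4 FPKM late and 947 to 1618 FPKM early.

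Genes that pattern the embryo moved in both directions. Of 34 tested, 7 were higher and 14 were lower, shares near the 22.7% and 37.7% of all genes. After median-of-ratios scaling 10 were higher and 10 lower, beside 3127 and 3033 of all 10213 genes. After quantile normalization 12 were higher and 8 lower, beside 2782 and 2723. Nudel (MSTRG.6720), the follicle cell protease that starts the dorsal-ventral cascade in the Drosophila eggshell, had 55.8 and 36.7 FPKM at day 9 and 29.8 and 21.5 FPKM at day 13, against 0.203 to 0.769 FPKM early (4.66 ± 0.19, adjusted p = 1.76e-08). The next proteases of that cascade, gastrulation defective (MSTRG.1457, 2.27) and snake (MSTRG.10432, 2.12), were held higher too, gastrulation defective by 1.35 without day 1. The called genes annotated as easter or easter-like, the type of the last protease of that cascade, were all lower, from -0.45 (MSTRG.5605) to -2.65 (MSTRG.4311). Protein wech (MSTRG.8114) had 81.7 and 95 FPKM at day 9 and 118 and 139 FPKM at day 13, against 0.838 and 0.765 FPKM at day 1 and 4.35 and 6.17 FPKM at day 5 (5.01 ± 0.19, adjusted p = 1.52e-08). Twist (MSTRG.6522), the mesoderm transcription factor of the early embryo, had 25.7 to 44.8 FPKM late against 1.25 to 1.78 FPKM early (3.77 ± 0.17, adjusted p = 4.16e-08). Poly(A) RNA polymerase gld-2 homolog B-like (MSTRG.1154), of a family that lengthens tails of maternal mRNAs in Drosophila, had 68.8 to 94.4 FPKM late against 2.16 to 6.24 FPKM early (4.18 ± 0.24, adjusted p = 1.83e-07).

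Cell cycle genes rose broadly. Of 45 tested, 27 were higher and 2 lower, where 22.7% of all genes were higher and 37.7% lower, and the median change was 0.74. After median-of-ratios scaling or quantile normalization 0 were lower. Cyclin B (MSTRG.8707), the mitotic cyclin that is also stored in eggs, had 796 and 851 FPKM at day 9 and 1046 and 1094 FPKM at day 13, against 108 and 56.2 FPKM at day 1 and 175 and 203 FPKM at day 5 (2.94 ± 0.28, adjusted p = 6.64e-06). Plutonium (MSTRG.4116), a regulator of the embryonic S phase in Drosophila eggs, had 50.9 and 76.2 FPKM at day 9 and 111 and 109 FPKM at day 13, against 6.77 to 8.53 FPKM early (3.26 ± 0.14, adjusted p = 2.72e-08). Also held higher were the M-phase inducer phosphatase (MSTRG.8854, 2.64), aurora borealis (MSTRG.2091, 2.24), Aurora-2 kinase (MSTRG.3703, 2.11), origin recognition complex subunit 2 (MSTRG.9709, 1.99) and the replication licensing factor Cdt1 (MSTRG.9444, 1.70). The 2 lower genes were ribonucleoside-diphosphate reductase subunit M2 (MSTRG.9521, -1.03) and the licensing factor REC (MSTRG.9231, -0.35), and neither passed after median-of-ratios scaling (-0.79 and -0.10) or quantile normalization (-0.29 and -0.04). Without day 1 they changed by 0.04 (adjusted p = 0.955) and -0.06 (adjusted p = 0.73), and without day 5 by -2.10 and -0.64. The reductase call also ended without day 9 (-1.14, adjusted p = 0.0524) or day 13 (-0.92, adjusted p = 0.12) or without either day 5 library, either day 13 library, day 1 replicate 2 or day 9 replicate 2 (-0.80 to -1.10), and that of REC without day 9 (-0.19, adjusted p = 0.213). The 47 listed genes together gave 2453 to 3626 FPKM late and 884 to 1419 FPKM early.

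Nuclear transport genes rose with them. Of 42 nuclear pore and transport genes, 21 were higher and 2 lower, where 22.7% and 37.7% of all genes were, with a median change of 0.21. After quantile normalization 17 were higher and 5 lower, and after median-of-ratios scaling 27 were higher and 0 lower. Without day 13 or without day 5 replicate 2, 15 were higher. The higher genes were led by transportin-1-like (MSTRG.1339), with 48.9 to 82.1 FPKM late against 2.14 to 5.76 FPKM early (3.92 ± 0.15, adjusted p = 1.45e-08), and importin subunit alpha (MSTRG.5286), with 266 to 354 FPKM late against 30.2 to 82.9 FPKM early. The lower ones were importin-5 (MSTRG.10193, -0.55) and ran-binding protein 16 (MSTRG.7544, -0.24), whose sign flipped to 0.03 after median-of-ratios scaling. Importin-5 no longer passed under that scaling (-0.27, adjusted p = 0.094) or without day 13 (-0.32, adjusted p = 0.183), nor ran-binding protein 16 without day 5 (-0.20, adjusted p = 0.0945), day 9 (-0.14, adjusted p = 0.224), day 1 replicate 2, day 5 replicate 2, day 9 replicate 1 or day 13 replicate 2 (-0.20 to -0.23). Among kinesins, dyneins and tubulins, 11 of 44 were higher and 17 lower, with shares close to those of all genes, and 10 were lower without day 1 or after quantile normalization (15 higher). Subito (MSTRG.8126), a kinesin of the female meiotic spindle in Drosophila, had 29.4 and 37.2 FPKM at day 9 and 68.3 and 57.1 FPKM at day 13, against 8.93 to 10.8 FPKM early. Tubulin alpha-4 chain (MSTRG.11036) had 59.4 to 88.5 FPKM late against 21.1 to 25.1 FPKM early. This is the tubulin type that is maternal in Drosophila.

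Steroid hormone genes were held high in the ovary. Flies make ecdysteroids from cholesterol with a chain of cytochrome P450 enzymes, and the adult ovary is a known site of that synthesis. Of 7 tested genes of the ecdysteroid synthesis list, which also holds the inactivating P450 18a1, 6 were higher and 0 lower. The median change was 1.67, and 22.7% of all genes were higher. Without day 5, 6 were higher and 1 lower, and without day 9, 7 were higher and 0 lower. Cytochrome P450 307a1-like (MSTRG.603), of the Spook type, had 76.1 and 79.6 FPKM at day 9 and 54.5 and 51.1 FPKM at day 13, against 0.241 and 0.311 FPKM at day 1 and 17.7 and 25.2 FPKM at day 5 (3.62 ± 0.14, adjusted p = 1.46e-08), and its change was 1.56 without day 1 and 5.67 without day 5. Cytochrome P450 315a1 (MSTRG.1266), known as Shadow, had 69.6 to 75.8 FPKM late, against 3.66 and 2.23 FPKM at day 1 and 13.6 and 15.8 FPKM at day 5 (3.24 ± 0.18). P450 306a1 (MSTRG.4969, 3.37), neverland (MSTRG.375, 1.67) and P450 302a1 (MSTRG.4933, 1.55) were held as well, and P450 18a1 (MSTRG.4970, 1.64), which inactivates ecdysteroids in Drosophila, was higher without being held. Without day 1 the change was 2.17 for P450 306a1, and neverland missed the threshold (adjusted p = 0.0743). Without day 9 it was 0.96 for P450 18a1. The summed level of the list was 205 to 258 FPKM late and 58 to 80.8 FPKM early.

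Targets of the ecdysone receptor were mixed. Of 19 tested, 9 were higher and 5 lower, where 22.7% and 37.7% of all genes were, and 14 were higher after quantile normalization. Both ecdysone-induced protein 75B genes were held higher, and MSTRG.6921 had 3.47 to 10.1 FPKM late against 0.365 to 0.863 FPKM early (2.13 ± 0.27, adjusted p = 5e-05). The 5 lower genes were the 3 of ecdysone-induced protein 74EF (MSTRG.5256, -2.14; MSTRG.699, -1.68; and 180118, -1.05, or -0.62 without day 1), an FTZ-F1-like receptor (MSTRG.1549, -1.17) and an ecdysteroid-regulated 16 kDa protein (MSTRG.1593, -1.59). MSTRG.5256 changed by -1.08 without day 1, and the FTZ-F1-like receptor by -0.76 without day 5. After quantile normalization the FTZ-F1-like call ended (-0.27, adjusted p = 0.12), and the 74EF genes changed by -1.36 (MSTRG.5256), -0.89 (MSTRG.699) and -0.48 (180118). The 16 kDa protein did not pass after median-of-ratios scaling (-1.32, adjusted p = 0.0992). It rested on day 1, with a change of 0.05 (adjusted p = 0.973) without it and of -3.23 without day 5, and it also lost its call without day 9 (-1.72, adjusted p = 0.0784), without day 13 (-1.47, adjusted p = 0.14) or without either library of days 1, 9 or 13 or day 5 replicate 1 (-1.17 to -1.85). Without day 9 the count of higher genes was 5 in place of 9.

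Juvenile hormone genes in the list are mainly epoxide hydrolases, which break the hormone down. Juvenile hormone epoxide hydrolase 1-like (MSTRG.9415) had 500.0 and 515 FPKM at day 9 and 659.6 and 631 FPKM at day 13, against 56.9 to 79.8 FPKM early (3.11 ± 0.16, adjusted p = 8.2e-08). A second hydrolase (MSTRG.9412) was held at 16.7 to 32.3 FPKM late against 3.6 to 9.47 FPKM early. In all, 4 of 6 genes were higher (22.7% of all genes) and 1 was lower, Krueppel homolog 1 (MSTRG.1353), the transcription factor that juvenile hormone induces, at 2.09 to 5.02 FPKM late against 3.69 to 15.3 FPKM early (-1.06 ± 0.24, adjusted p = 0.00306). Krueppel homolog 1 no longer passed without day 5 (-0.35, adjusted p = 0.333) or day 13 (-0.76, adjusted p = 0.0518) or after quantile normalization (-0.52, adjusted p = 0.0635), and its change was -1.76 without day 1.

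The receptor end of insulin signalling was held high. Insulin receptor (MSTRG.2608) had 64.8 and 89.5 FPKM at day 9 and 93.7 and 85 FPKM at day 13, against 13.2 to 17.8 FPKM early (2.38 ± 0.13, adjusted p = 1.3e-07). In fat body the same gene changed by -0.34 ± 0.13 (adjusted p = 0.0761), and the tissues differed by 2.73 ± 0.19 (adjusted p = 1.64e-06). Insulin-like peptide receptor (MSTRG.5296) had 211 to 261 FPKM late, against 29.6 and 18.1 FPKM at day 1 and 90.3 and 99.2 FPKM at day 5 (2.23 ± 0.18, and 1.24 without day 1). A regulatory subunit of phosphatidylinositol 3-kinase (MSTRG.8393, 1.57), an S6 kinase (MSTRG.5806, 1.09) and forkhead box protein O (MSTRG.2338, 1.01) were also held higher. Of 14 tested, 7 were higher and 3 lower, where 22.7% and 37.7% of all genes were, the lower ones being target of rapamycin (MSTRG.2917, -0.79), an insulin-like peptide (MSTRG.1809, -0.61), whose sign flipped to 0.07 after quantile normalization, and tuberin (MSTRG.6896, -0.35). Without day 1, 1 gene of the list was lower: the change was -0.19 (adjusted p = 0.682) for target of rapamycin and -0.43 (adjusted p = 0.0555) for the insulin-like peptide, and 1.04 for the phosphatidylinositol 3-kinase subunit. After median-of-ratios scaling 1 was lower too, and neither target of rapamycin (-0.53, adjusted p = 0.122) nor tuberin (-0.11, adjusted p = 0.425) passed, nor did they after quantile normalization (-0.09 and -0.05). Target of rapamycin changed by -1.39 without day 5, -0.04 (adjusted p = 0.928) without day 9 and -1.54 without day 13, and lost its call without either day 5 library, day 1 replicate 2, day 9 replicate 2 or day 13 replicate 2 (-0.43 to -0.80). Tuberin lost its call without day 5 (-0.26, adjusted p = 0.131), without day 9 (-0.34, adjusted p = 0.0601) or without day 1 replicate 2, day 5 replicate 1, day 9 replicate 2 or day 13 replicate 2 (-0.31 to -0.35).

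Among 6 genes of the small RNA machinery, 2 were higher and 2 lower (33.3% each), beside 22.7% and 37.7% of all genes. After median-of-ratios scaling or quantile normalization 3 were higher and 2 lower. Dicer (MSTRG.4783), which cuts microRNA or small interfering RNA precursors, had 26 to 35.3 FPKM late against 75.9 to 106 FPKM early (-1.48 ± 0.17, adjusted p = 2.9e-05). Exportin-5 (MSTRG.10548), which carries RNAs out of the nucleus, had 29.4 to 50.3 FPKM late against 13.3 to 20.04 FPKM early (1.31 ± 0.15, adjusted p = 3.41e-05). The 2 argonaute-2 genes moved apart, MSTRG.4804 with 58.4 to 87.7 FPKM late against 16.5 to 30.7 FPKM early and MSTRG.6869 with 117 to 127 FPKM late against 187 to 209.8 FPKM early (-0.68 ± 0.12, and -0.40 after median-of-ratios scaling).

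Among fuel genes, single members moved far. Maltase 2-like (MSTRG.8324), a sugar-cleaving enzyme, had 3279 and 3414 FPKM at day 9 and 5079 and 4825 FPKM at day 13, against 110.1 and 70.8 FPKM at day 1 and 261 and 318 FPKM at day 5 (4.66 ± 0.14, adjusted p = 4.07e-09). It is counted among the gut markers, which summed to 3727 to 5384 FPKM late and 337 to 1236 FPKM early, and it made up most of that sum in late libraries but not in early ones. Of 36 gut markers 6 were higher and 11 lower, where 22.7% and 37.7% of all genes were, with 4 lower after quantile normalization. Glycogen debranching enzyme (MSTRG.3354) had 84 to 108 FPKM late against 15.4 to 31.2 FPKM early. Of 68 sugar and energy genes, 14 were higher and 26 lower, shares like those of all genes, with 17 lower without day 1 and 23 higher and 21 lower after median-of-ratios scaling. Trehalose-phosphate synthase (MSTRG.7927), which makes the blood sugar of insects, had 4.76 to 11.2 FPKM late against 77 to 119 FPKM early (-3.49 ± 0.16).

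Lipid genes gave 13 higher (19.7%) and 31 lower (47%) among 66, beside 22.7% and 37.7% of all genes. After median-of-ratios scaling 18 were higher and 28 lower, and after quantile normalization 16 were higher and 22 lower. Without day 1, 14 were higher and 23 lower. Diacylglycerol O-acyltransferase 1 (MSTRG.9605), the last enzyme of triglyceride synthesis, had 44.8 and 44.9 FPKM at day 9 and 69.9 and 64.7 FPKM at day 13, against 6.04 to 9.47 FPKM early (2.70 ± 0.08, adjusted p = 4.28e-09). Lipid storage droplets surface-binding protein 2 (MSTRG.2275), which coats lipid droplets, had 272 to 399 FPKM late against 55.5 to 181 FPKM early (1.82 ± 0.16, and 1.17 without day 5). A putative fatty acyl-CoA reductase (MSTRG.3189) fell to 0.593 to 1.11 FPKM late, against 48.9 and 78.3 FPKM at day 1 and 14.5 and 12.9 FPKM at day 5 (-4.05 ± 0.14). Apolipoprotein D genes and apolipophorins, carriers of lipid in the blood, were also among the lower ones.

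For the machinery of protein making and respiration, the counts depended on the scaling. Of all genes, 22.7% were higher and 37.7% lower as deposited. After median-of-ratios scaling 3127 of all 10213 genes were higher and 3033 lower, and after quantile normalization 2782 and 2723. Over all genes 2012 were higher and 2980 lower without day 1, and 1689 and 3391 without day 13. Of 53 cytosolic ribosomal proteins, 0 were higher and 10 lower in limma, with a median of -0.24, close to that of all genes. After median-of-ratios scaling, which moved the median of all genes to -0.01, 1 was higher and 1 lower with a median of 0.04, and after quantile normalization 1 was higher and 13 lower. The 10 lower ribosomal proteins became 1 without day 13, day 1 replicate 1 or day 13 replicate 2, 2 without day 5 replicate 1 or day 9 replicate 1, and 3 without day 9 replicate 2. Oxidative phosphorylation gave 4 higher and 21 lower of 43 as deposited, 6 higher and 5 lower after median-of-ratios scaling and 5 higher and 19 lower after quantile normalization. Without day 1 or day 13, 11 of these were lower, and the 4 higher ones became 0 without day 13, 1 without day 5, and 2 without day 1 replicate 2, either day 9 library or day 13 replicate 1. Splicing genes gave 8 higher and 12 lower of 49, 17 higher and 3 lower after median-of-ratios scaling and 8 higher and 13 lower after quantile normalization, with 5 higher and 7 lower without day 1 and 5 higher without day 5. Of 20 proteasome genes, 8 were higher and 0 lower, with 14 higher after median-of-ratios scaling and 11 higher and 1 lower after quantile normalization. Proteasome calls fell to 1 higher without day 1 or day 13, 2 without day 5 replicate 2, 3 without day 1 replicate 2 or day 9 replicate 2, 4 without day 13 replicate 1 and 5 without day 9 replicate 1.

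Among 46 mitochondrial ribosomal proteins 8 were higher and 3 lower, with 18 higher after median-of-ratios scaling, 6 lower after quantile normalization and 4 higher without day 13. Translation initiation factors gave 3 higher and 11 lower of 28, 5 higher and 4 lower after median-of-ratios scaling, and 7 lower without day 5 or day 13. Heat shock proteins and chaperones gave 11 higher and 10 lower of 46, with 4 lower after median-of-ratios scaling, 7 higher without day 13 and 6 lower without day 5 replicate 1. The shares of all genes were 22.7% higher and 37.7% lower.

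**Figure D3:**
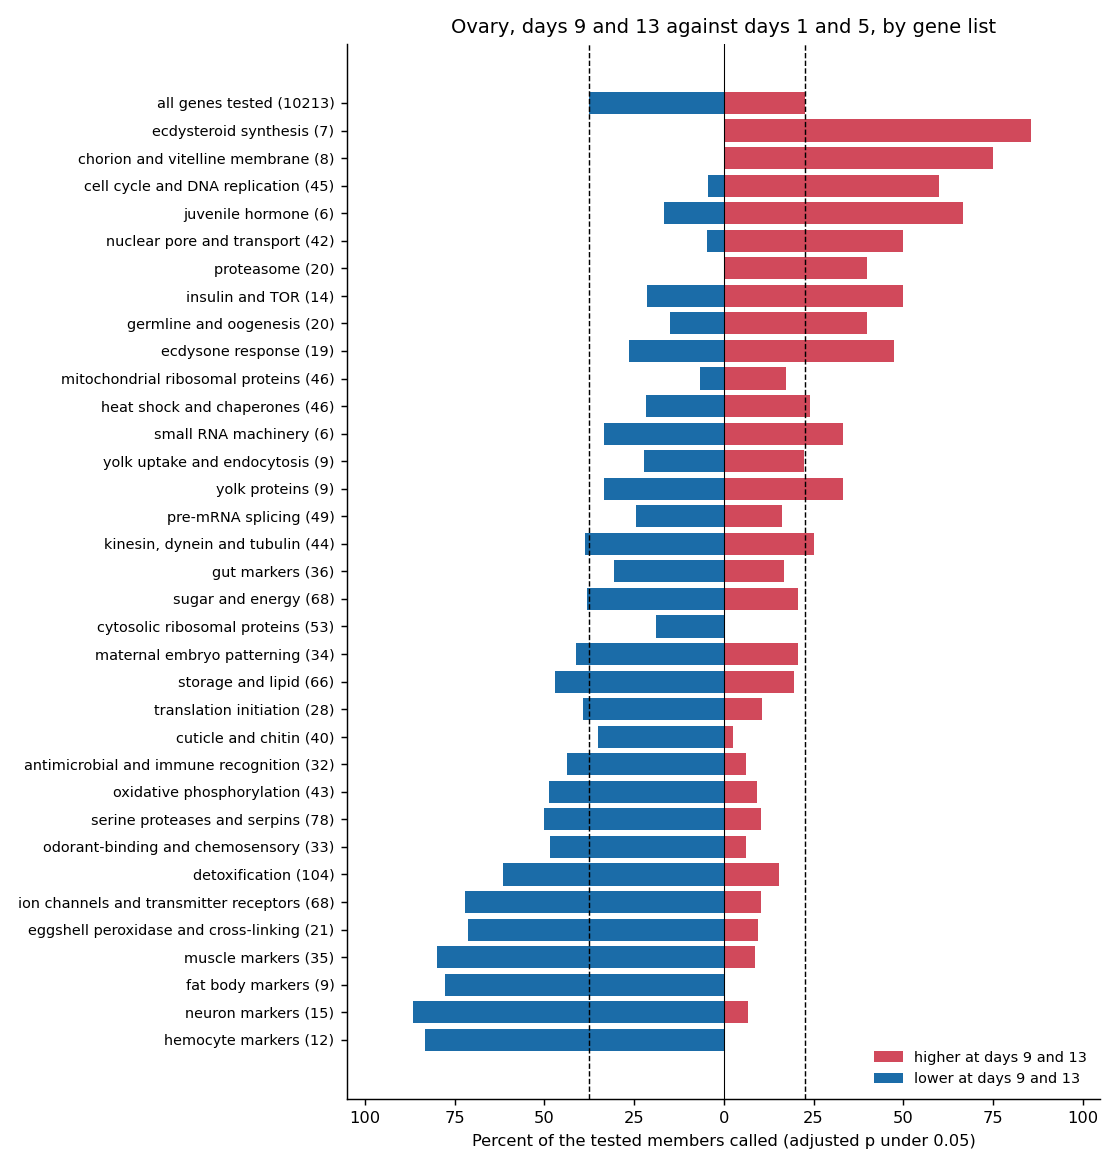
Bars give the percent of the tested members of each gene list called higher (right) or lower (left) at days 9 and 13, with the number tested in brackets and the all-gene shares of 22.7% and 37.7% as dashed lines. Ecdysteroid synthesis, chorion and vitelline membrane and cell cycle lists extend to the right, and muscle, neuron, hemocyte and fat body markers extend to the left.

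Muscle markers had the lowest median change of the 34 lists. Of 35 tested, 28 were lower and 3 higher, where 37.7% and 22.7% of all genes were, with a median change of -2.74. The 45 listed genes summed to 546 to 1369.7 FPKM in late ovaries, against 3858 to 7187 FPKM in early ovaries and 7283 to 19894 FPKM in fat body. The M-line protein unc-89-like (MSTRG.327), which organises the sarcomere, had 10.4 and 10.2 FPKM at day 9 and 6.2 and 4.87 FPKM at day 13, against 67.5 and 66.8 FPKM at day 1 and 47.8 and 43.3 FPKM at day 5 (-2.72 ± 0.11, adjusted p = 2.37e-08). Muscle-specific actin-2 (MSTRG.5397) had 423 FPKM in day 9 replicate 1 and 7.27 to 25.4 FPKM in the other late libraries, against 788 to 2542 FPKM early, so that 1 late library held much of the late signal. The 3 higher genes were troponin T, cardiac muscle isoforms-like (MSTRG.8262, 2.28), at a locus that carries a second product name, troponin C-akin-1 (MSTRG.7109, 1.15) and a troponin C (MSTRG.7940, 0.47). Troponin C-akin-1 no longer passed without day 1 (0.81, adjusted p = 0.0617), nor troponin C without day 5 (0.31, adjusted p = 0.21), day 13 (0.30, adjusted p = 0.239), either library of days 1 or 5, day 9 replicate 1 or day 13 replicate 2 (0.36 to 0.49). In bulk tissue, fewer cells of a type and less RNA per cell cannot be told apart, here or in the lists that follow.

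Nerve and blood cell genes went down beside muscle. Of 15 neuron markers, 13 were lower (37.7% of all genes) and 1 higher, a sodium channel 60E gene (MSTRG.8233, 0.57, or 0.47 with adjusted p = 0.0779 without day 13). The count of lower neuron markers was 8 without day 1 and 5 after quantile normalization. Their summed level was 93.4 to 98 FPKM late and 147 to 167 FPKM early. Of 68 ion channels and transmitter receptors, 49 were lower and 7 higher, and 29 were lower and 11 higher after quantile normalization. Glycine receptor subunit alpha-2 (MSTRG.3111), a chloride channel subunit, had 2.16 and 1.35 FPKM at day 9 and 0.729 and 0.424 FPKM at day 13, against 56.3 and 62.1 FPKM at day 1 and 83.1 and 67.8 FPKM at day 5 (-5.03 ± 0.15, adjusted p = 4.07e-09). The D-type voltage-dependent calcium channel (MSTRG.484), which serves muscle and nerve in flies, had 1.98 to 4.92 FPKM late against 28.3 to 39.8 FPKM early (adjusted p = 4.28e-09). Of 12 hemocyte markers, 10 were lower and 0 higher, and the list summed to 66 to 79.9 FPKM late and 179 to 209.9 FPKM early. Phenoloxidase 2 (MSTRG.1320), the melanin enzyme of insect blood, which also counts among the immune genes below, had 4.57 and 3.06 FPKM at day 9 and 1.68 and 1.48 FPKM at day 13, against 38 to 60.7 FPKM early (-3.78 ± 0.18, adjusted p = 4.84e-08). Hemocytin (MSTRG.6731), a clotting and adhesion protein, had 1.06 to 2.71 FPKM late against 12.3 to 21.5 FPKM early.

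**Figure D4:**
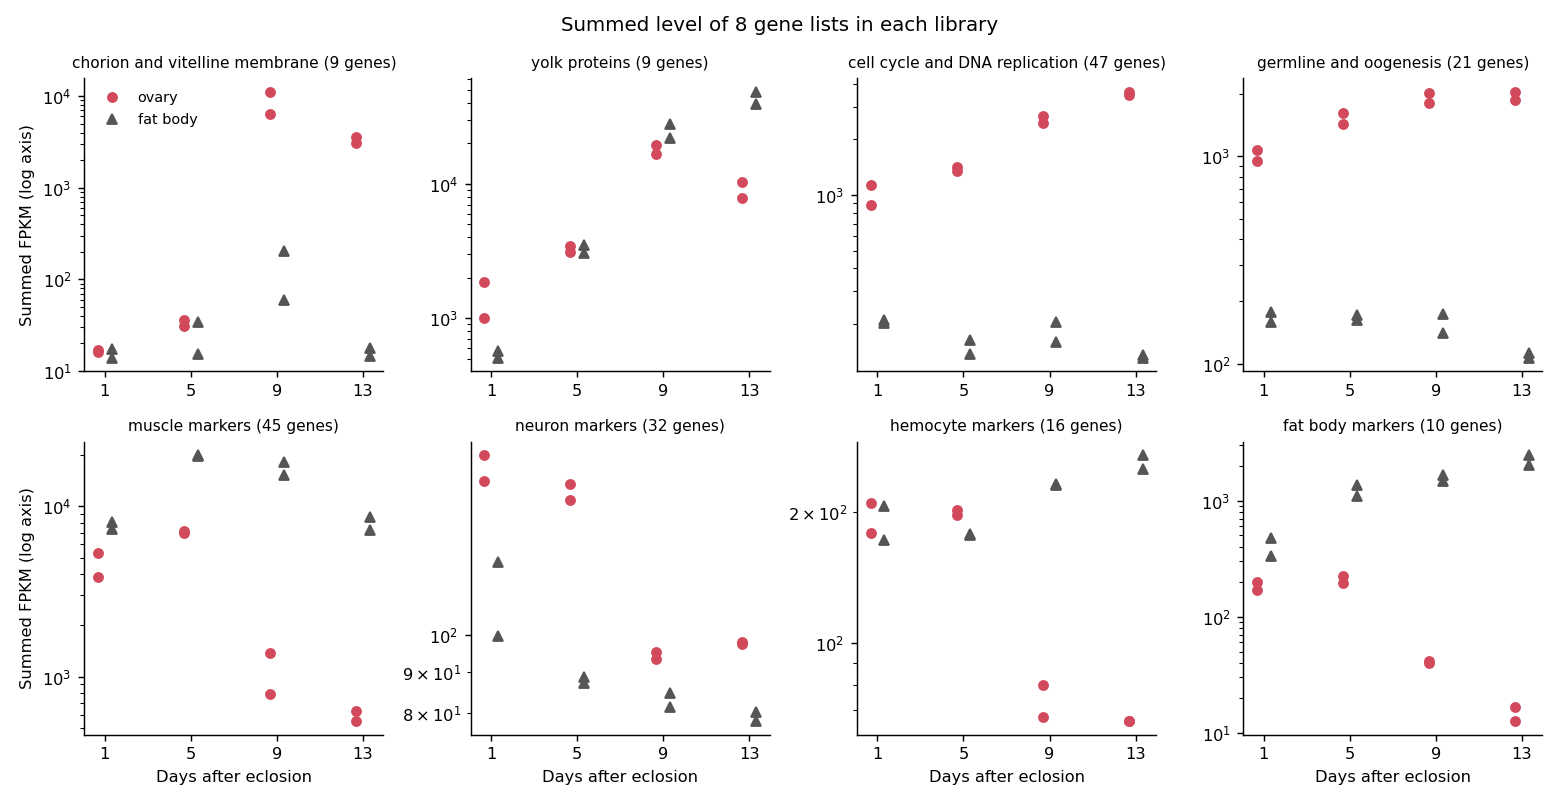
Summed FPKM (log axis) of 8 gene lists is plotted for each library against age, with ovary as red circles and fat body as grey triangles. Late ovaries sit above early ones for the eggshell and cell cycle lists and below them for muscle (546 to 1369.7 against 3858 to 7187 FPKM), neuron, hemocyte and fat body markers.

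Antimicrobial, detoxification, protease, cuticle and chemosensory genes are given beside the 37.7% of all genes that were lower and the 22.7% that were higher. The marker sums of muscle, nerve and blood were lower in the same libraries, and the part of those cells in these counts was not tested. Of 32 antimicrobial and recognition genes, 14 (43.8%) were lower and 2 higher, attacin-A-like (MSTRG.9215, 2.59) and toll-like receptor 3 (MSTRG.7314, 1.29), which no longer passed without day 5 (0.96, adjusted p = 0.172), day 9 (1.34, adjusted p = 0.0651), day 13 (1.24, adjusted p = 0.0945), either library of days 9 or 13, day 1 replicate 2 or day 5 replicate 1 (0.67 to 1.31). Peptidoglycan-recognition protein LC-like (MSTRG.10014), a receptor for bacterial cell wall, had 2.08 to 4.55 FPKM late against 11.9 to 24.9 FPKM early (-2.08 ± 0.12). In fat body 11 of the same 32 genes were higher and 2 lower, where 7.8% and 21.1% of all genes were. Of 104 detoxification genes, 64 (61.5%) were lower and 16 higher, with 43 lower without day 1. Cytochrome P450 4g15 (MSTRG.4498) had 1.11 to 1.57 FPKM late, against 55.5 and 80.4 FPKM at day 1 and 13.6 and 10.05 FPKM at day 5 (-3.69 ± 0.15). A UDP-glucuronosyltransferase-like gene (MSTRG.10522) stood out on the higher side, with 149 to 235 FPKM late against 4.8 to 29.5 FPKM early.

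Serine proteases and serpins gave 39 lower (50%) and 8 higher of 78, or 24 lower and 12 higher after quantile normalization, led downward by a proclotting enzyme (MSTRG.8508), with 0.972 to 1.92 FPKM late, against 93.1 and 67.1 FPKM at day 1 and 33.4 and 28.1 FPKM at day 5 (-4.32 ± 0.18). In fat body 36 of these 78 were higher and 6 lower, where 7.8% and 21.1% of all genes were. Of 40 cuticle and chitin genes, 14 (35%) were lower, beside 37.7% of all genes, and 1 was higher, cuticle protein 8 (MSTRG.2469, 2.53), whose change was 0.93 without day 1, 4.13 without day 5 and 1.46 without day 9. Endochitinase (MSTRG.6083) was a day 1 transcript: it had 0.512 to 0.882 FPKM late, against 174 and 484 FPKM at day 1 and 1.41 and 0.887 FPKM at day 5, and its change of -3.93 became -0.38 (adjusted p = 0.395) without day 1 and -7.47 without day 5. Of 33 odorant-binding and chemosensory genes, 16 (48.5%) were lower and 2 higher, with 10 lower without day 1 and 9 after quantile normalization. One takeout gene (MSTRG.9188), of a family of small carrier proteins, had 2.27 to 2.55 FPKM late, against 147 and 165 FPKM at day 1 and 28.5 and 23.2 FPKM at day 5 (-4.26 ± 0.11, adjusted p = 3.94e-09). Odorant-binding protein 19d (MSTRG.3382) went the other way, with 149 to 216 FPKM late, against 0.7 and 1.39 FPKM at day 1 and 11.4 and 30.5 FPKM at day 5 (4.93 ± 0.27, and 3.28 without day 1). The second higher gene was a gustatory and pheromone receptor (MSTRG.8444, 0.63), which no longer passed without day 5 (0.30, adjusted p = 0.21) or day 13 (0.36, adjusted p = 0.148) and changed by 0.97 without day 1.

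Other genes with very large held drops belonged to none of these lists. Carbonic anhydrase 2-like (MSTRG.6128), which interconverts carbon dioxide and bicarbonate, had 0.673 to 1.66 FPKM late against 78.9 to 164 FPKM early (-5.72 ± 0.24, adjusted p = 2.32e-08). A gene annotated as spidroin-2 (MSTRG.4394) had 1.06 to 2.71 FPKM late against 51.4 to 71.9 FPKM early (-4.42 ± 0.22, adjusted p = 5.77e-08). Dual specificity phosphatase 18 (MSTRG.442) had 1.92 to 3.74 FPKM late against 34.9 to 111 FPKM early (-4.22 ± 0.16), while in fat body it changed by 0.00 (adjusted p = 0.995).

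Named for their large increase between days 9 and 13 were 3 called genes. Protein MCM10 homolog (MSTRG.207), a replication factor, had 0.482 FPKM in day 9 replicate 1 and 39.9 FPKM in day 9 replicate 2, with 45 and 42.3 FPKM at day 13, against 0.582 to 0.796 FPKM early. A single day 9 library at the early level thus set its difference between days, and without day 9 replicate 2 the late minus early change was 2.29 in place of 3.48, and 2.22 without day 13 (adjusted p = 0.177). Mitochondrial ribosomal protein L33 (MSTRG.10724) had 25.2 and 23.3 FPKM at day 9 and 336 and 119 FPKM at day 13, against 5.33 to 24.3 FPKM early (2.53 ± 0.46, 1.03 with adjusted p = 0.158 without day 13, and 4.03 without day 9). Senecionine N-oxygenase-like (MSTRG.9114) had 8.91 and 3.41 FPKM at day 9 and 64.9 and 77.3 FPKM at day 13, against 6.7 to 21.1 FPKM early. Its change of 0.75 turned to -0.97 without day 13, became 1.17 without day 1, 0.34 (adjusted p = 0.39) without day 5 and 2.48 without day 9, and the call was lost without day 1 replicate 1, day 5 replicate 2, day 9 replicate 1 or day 13 replicate 2.

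The same contrast was fitted in fat body. There 2956 genes (28.9%) were called, 797 (7.8%) higher and 2159 (21.1%) lower late. The late minus early change differed between the tissues for 5371 of the 10213 genes (52.6%), 25.4% higher and 27.2% lower in ovary, and among held genes for 760 of the higher (94.4%) and 1628 of the lower (85.3%). Of the 805 genes held higher in the ovary, 80 (9.94%) were called higher in fat body and 86 (10.7%) lower. Of the 1909 held lower, 625 (32.7%) were called lower in fat body and 169 (8.85%) higher. Since held genes were chosen on the ovary contrast, which enters the difference, these shares describe the held genes and test nothing about them.

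The next 3 genes were chosen for their difference between the tissues, so their values are a description. Tailless (MSTRG.2141), a nuclear receptor of the embryonic termini and the brain in Drosophila, went in opposite directions. In the ovary it had 180.1 and 181 FPKM at day 9 and 182 and 187 FPKM at day 13, against 34.4 and 21.2 FPKM at day 1 and 33.5 and 30.4 FPKM at day 5. In fat body it had 207 and 178 FPKM at day 9 and 58.1 and 8.11 FPKM at day 13, against 1079 and 1109 FPKM at day 1 and 1052 and 891 FPKM at day 5. The change was 2.60 ± 0.45 in ovary and -3.94 ± 0.45 in fat body, a difference of 6.54 ± 0.63. Transferrin (MSTRG.6582), the iron carrier of insect blood, had 349.7 and 288 FPKM at day 9 and 191 and 218 FPKM at day 13 in ovary, against 623 to 1074 FPKM early, and in fat body 7759.6 to 23784 FPKM late against 785 to 1388 FPKM early. Its change was -1.67 ± 0.18 in ovary and 3.54 ± 0.18 in fat body. Sensory neuron membrane protein 1 (MSTRG.5867), a CD36-type lipid receptor, had 1.46 to 3.94 FPKM late and 35.2 to 65.2 FPKM early in ovary, and averaged 15.1 ± 4.92 FPKM late and 3.54 ± 1.62 FPKM early in fat body (SD, n = 4 each).

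**Figure D5:**
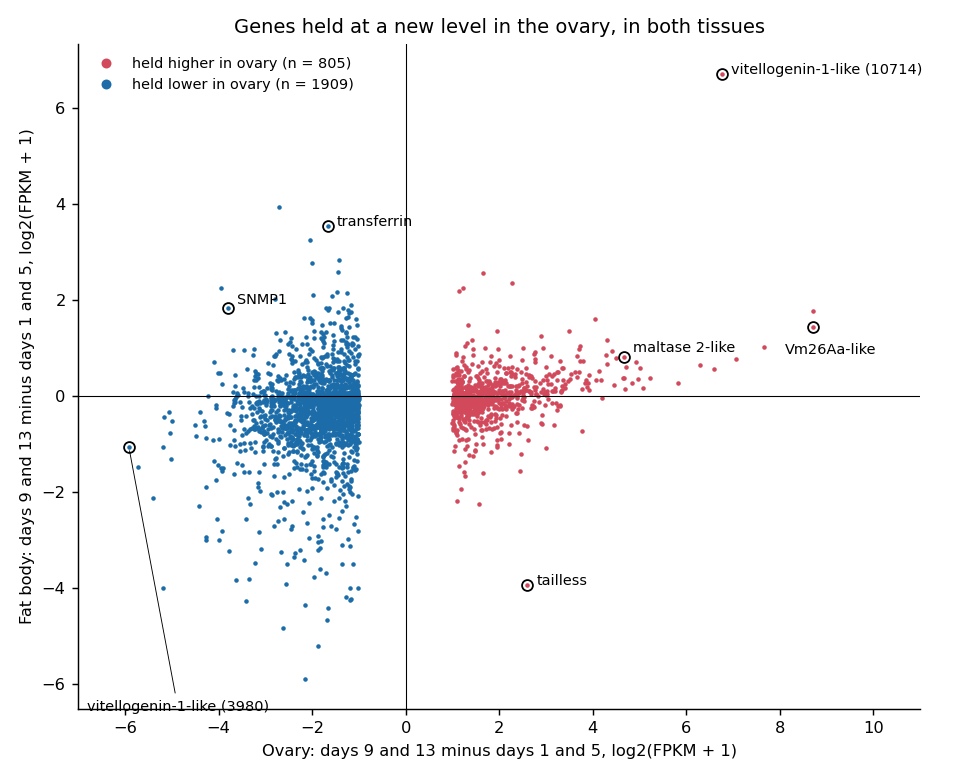
Each point is 1 gene held at a new level in the ovary, with its late minus early change in ovary on the x axis and in fat body on the y axis, both on the log2(FPKM + 1) scale. Of the 805 red points 639 (79.4%) were not called in fat body, and of the 1909 blue points 1115 (58.4%) were not. Vitellogenin-1-like (MSTRG.10714) is high in both tissues, and tailless and transferrin lie in quadrants of opposite sign.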

How the data were processed

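Ovary and fat body of adult females were sequenced at 1, 5, 9 and 13 days after eclosion, 2 libraries per tissue and age. Per the submitters' processing notes, Bowtie 0.12.2, HISAT2 2.0 and StringTie 1.3.0 were used, in roles not given in the sources used here; the build named there is a mouse build, so the fly assembly is not known and no position or sequence is given. The authors deposited 1 table of FPKM for 13759 genes. Products come from its description column. Its symbol column was not used: 55 genes were cytosolic ribosomal proteins by product and 47 by symbol, with 0 shared.

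FPKM as deposited were taken to log2 with a pseudocount of 1. Genes were kept where the mean of any of the 8 groups reached 1 FPKM, which left 10213, and fitted with limma 3.58.1 (R 4.3.3; trend and robust moderation, 1 coefficient per group, all 16 libraries), with Benjamini-Hochberg adjustment over all of them at 0.05. Tables and plots used Python 3.11.15, pandas 2.3.3, numpy 2.4.6 and matplotlib 3.10.9. The script was tested on simulated data. Contrasts were days 9 and 13 minus days 1 and 5 in each tissue, and their difference. The 34 gene lists were defined by product names. Members, lists and rules were chosen with earlier results of these data known. Named genes were the 10 held genes with the largest change in each direction (mean of at least 10 FPKM on the higher side, informative product, no product repeated), up to 2 held genes with the smallest p per list, the vitellogenins and their receptor, vasa, oskar, nanos and chorion S16, S36 and S38, per direction 3 called genes with the largest change between days 13 and 9, and per direction 3 held genes with the largest called difference between tissues. This gave 88 genes; 55 further genes were named after their values were seen.

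Alternatives were other pseudocounts, filters, scalings, moderation, models, thresholds and limits, a replicate block, and each age or library left out; leaving them out for list counts was added after the data were seen.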

Additional observations from a re-analysis of the deposited data

Results flagged for a closer look

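By the interaction test in limma, the late minus early change differed between ovary and fat body for 119 of the 143 named genes, 75 higher and 44 lower in ovary, beside 52.6% of all genes. Given here are 16 of them: the chorion, yolk and germline genes fixed by name, the genes chosen for that difference, and others whose fat body change the text gives. Higher in ovary than in fat body were vitelline membrane protein Vm26Aa-like (7.27), skin secretory protein xP2-like (6.94), chorion proteins S38 (7.30), S36 (6.61) and S16 (5.21), tailless (6.54), insulin receptor (2.73), oskar (2.40), the putative vitellogenin receptor (1.64) and nanos (1.12). Lower in ovary than in fat body were sensory neuron membrane protein 1 (-5.63), transferrin (-5.21), dual specificity phosphatase 18 (-4.22), vitellogenin-1-like MSTRG.3980 (-4.86) and MSTRG.3979 (-4.14), and vitellogenin-3-like MSTRG.3977 (-2.47). The named genes were chosen mostly for a large change in ovary or for that difference itself, so the count says nothing about how common such differences are.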

How the results depend on the processing

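Of 143 genes, 88 chosen by the rule and 55 named besides, 106 kept their call and direction under every alternative and 37 did not under at least 1. Over 3139 pairs of gene and alternative, 2961 were the same, 163 lost the call, 8 gained it and 7 changed sign. The sign changes were vitellogenin-3-like MSTRG.3978 without day 5 (1.21), vasa without day 1 (-0.16), senecionine N-oxygenase-like without day 13 (-0.97), the ecdysteroid-regulated 16 kDa protein (0.05) and ribonucleoside-diphosphate reductase subunit M2 (0.04) without day 1, the insulin-like peptide after quantile normalization (0.07) and ran-binding protein 16 after median-of-ratios scaling (0.03). The call was lost for 19 named genes when age was ignored within each side, for 16 at a 2-fold threshold, for 7 each after median-of-ratios scaling and quantile normalization, for 5 each with only the 8 libraries of the tissue and with a pseudocount of 0.1, and for 2 with no filter. Ignoring age, which lets differences between the ages of a side enter the SE, left 4959 ovary genes called (1812 higher, 3147 lower) in place of 6163. A 2-fold threshold left 3220 ovary genes (976 higher, 2244 lower), 1047 fat body genes (393 higher, 654 lower) and 3382 differences between tissues (1403 higher), fewer by construction. Quantile normalization left 1098 genes held lower, and median-of-ratios scaling and quantile normalization left 1227 and 1265 fat body genes lower, with 1499 higher under the first; the cause was not tested. Without day 1, 1564 fat body genes were called (951 lower), and without day 13, 1269 were lower. Replicate numbers are not said to pair libraries, and deviations of same-numbered libraries correlated at -0.149 to 0.146 between groups; with a replicate block, 6068 ovary genes, 2807 fat body genes and 5282 differences were called. With 2 libraries a group and no read totals, small changes of low genes cannot be judged.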
